A study of Homo sapiens with 6 samples.

Results

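Aminoacyl-tRNA synthetases join each amino acid to its transfer RNA (tRNA), the step that fixes which amino acid a codon receives during translation. Human cells use separate nuclear gene sets for the cytosol and for mitochondria, where the enzymes carry the suffix 2. GARS1 and KARS1 make the glycine and lysine enzymes of both compartments. In the cytosol, several synthetases assemble on the scaffold proteins AIMP1 and AIMP2 into the multi-synthetase complex. Many cytosolic synthetase genes are known targets of ATF4, the transcription factor made when eIF2alpha is phosphorylated in the integrated stress response. The 37 genes described here were taken by symbol from the 60419 rows of the deposited count table. They are 12 genes for cytosolic synthetases outside the complex, 7 for enzymes of the complex, its 2 scaffold genes and 16 genes for mitochondrial synthetases. The list leaves out the third scaffold gene EEF1E1, whose values are given beside it.

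The cells were 12Z, a human line derived from endometriosis and immortalised, labelled wild type and kept in medium with 10% charcoal-stripped serum. The Myrrh group received an extract of myrrh, a plant resin, at 100 µg/mL in DMSO for 12 h, and the DMSO group received the vehicle. Each group had 3 libraries, made from 1.5 µg of total RNA each, and the study asked which genes respond to the extract. Whether the replicates were grown as separate cultures is not stated in the labels, and a p-value therefore reflects the spread among these libraries only, which may be technical.

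Depth was 22454783 to 27588151 estimated gene counts per library, and the 37 genes held between 66 and 21247 counts in any 1 library. All 37 passed the filter on low counts. Of the markers checked for the labelled line, the epithelial keratin KRT18 (627 ± 13.2 to 507 ± 31.2 CPM, mean ± SD, n = 3) and the stromal collagen gene COL1A1 (5725 ± 164 to 762 ± 17.1 CPM) were abundant. EPCAM was low (1.04 ± 0.0862 to 2.28 ± 0.349 CPM), and the epithelial cadherin gene CDH1 was removed by the filter. Summed over 6 stromal markers, the level was 10600 to 10840 CPM in DMSO and 3097 to 3273 CPM in Myrrh, and over 6 epithelial markers 1743 to 1832 and 1221 to 1350 CPM. The 6 leukocyte markers summed to 33.9 to 34.8 and 51.3 to 63.6 CPM, almost all of it CD68, with CD3E at 0 in all libraries. The 5 endothelial markers summed to 0.486 to 0.800 and 0.188 to 0.419 CPM, with CDH5 at 0. The part of these marker shifts in the results below was not tested, and in bulk RNA fewer cells of a type and less RNA per cell cannot be told apart.

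With Myrrh, the cytosolic synthetase genes rose nearly as a whole and the mitochondrial genes moved both ways. Of the 19 cytosolic enzyme genes, 18 rose and 1, QARS1, fell, with a median log2 fold change of 1.04 (Myrrh against DMSO). Of the 16 mitochondrial genes, 11 rose, 4 fell and 1 was not called, with a median of 0.34. Over all 16395 genes tested, 39.3% were called higher and 39.1% lower, 78.4% in all, with a median of -0.02. A gene was called where the quasi-likelihood F-test of edgeR gave p under 0.05 after Benjamini-Hochberg adjustment. An increase of at least 2-fold was called for 10 of the 19 cytosolic genes, against 11.3% of all genes, and for 1 of the 16 mitochondrial genes. A decrease of that size was called for VARS2, against 18.0% of all genes, and QARS1 fell by less than that. In 36 of the 37 genes the 2 groups of libraries did not overlap in CPM (a gene's count scaled to library size with TMM factors), against 80.3% of all genes. Scaled by library totals alone, without TMM factors, the median fold change of all genes moved by -0.14, and 8 mitochondrial genes were called higher and 5 lower. Of all 16395 genes, 5378 were called higher and 7479 lower with that scaling. Against a log2 fold change of 0.5 (glmTreat), 16 cytosolic and 5 mitochondrial genes were called higher, beside 3472 of all 16395 genes.

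**Figure D1:**
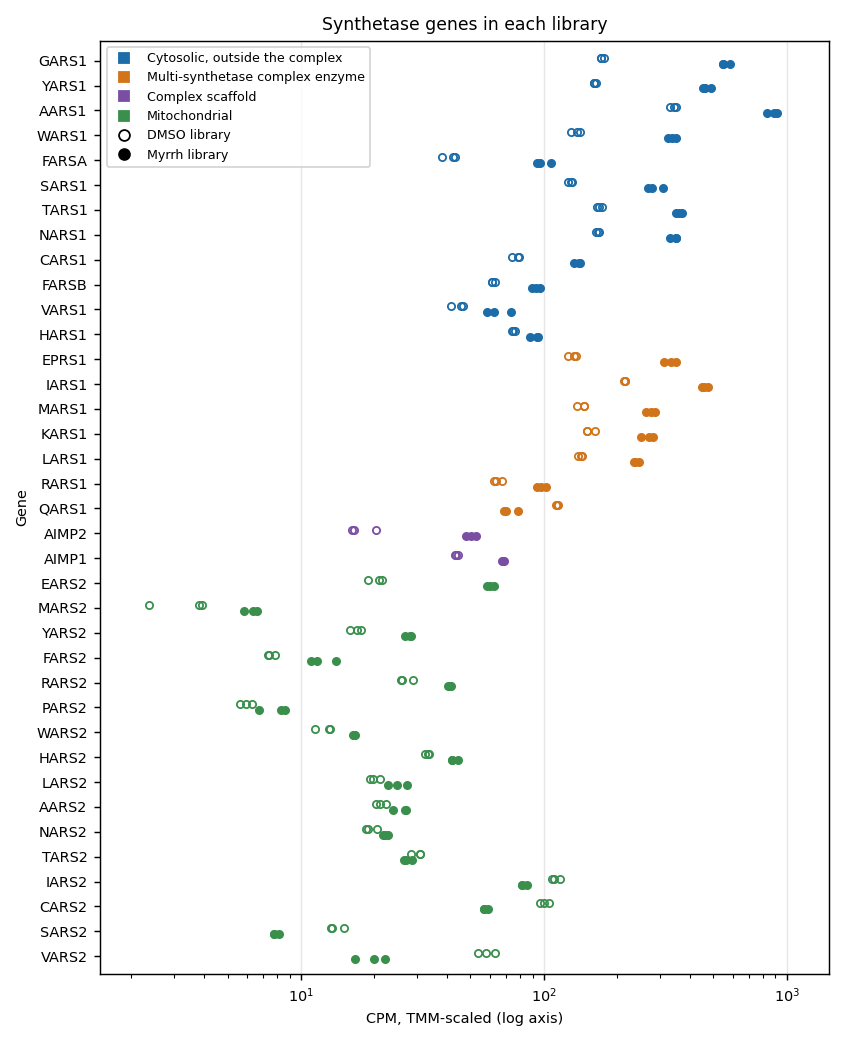
CPM of each of the 37 genes in the 3 DMSO libraries (open circles) and the 3 Myrrh libraries (filled circles) on a log axis, coloured by class and ordered within a class by fold change. The open and filled circles of a gene are apart in every row except TARS2.

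**Figure D2:**
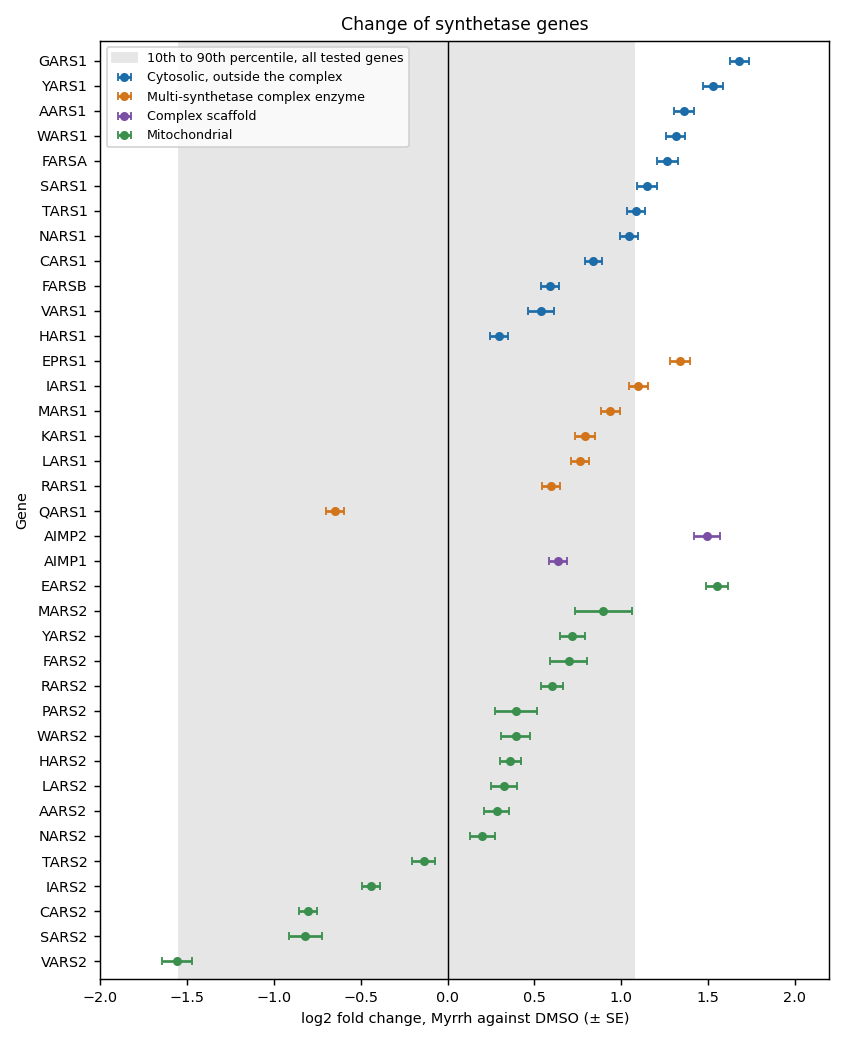
log2 fold change of each gene with its standard error, beside the range that holds the middle of all tested genes (10th to 90th percentile, -1.55 to 1.07). Blue and orange points lie right of 0 except QARS1, and the green mitochondrial points reach from -1.56 (VARS2) to 1.55 (EARS2).

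Among the cytosolic enzymes outside the complex, all 12 rose. GARS1, the glycine enzyme, had 177, 173 and 172 CPM in the DMSO libraries and 547, 545 and 584 CPM in the Myrrh libraries. It rose 3.21-fold (log2 fold change 1.68 ± 0.06, SE; adjusted p = 1.28e-19), the highest value of the 37 genes, and stood at percentile 96.8 of all tested genes. YARS1, the tyrosine enzyme, went from 162 ± 1.60 to 468 ± 19.6 CPM (mean ± SD, n = 3), a log2 fold change of 1.53 ± 0.06 (adjusted p = 8.32e-19). In both genes the lowest Myrrh library stood far above the highest DMSO library. AARS1, the alanine enzyme, had 344, 350.5 and 330.4 CPM in the DMSO libraries and 891, 831 and 911 CPM in the Myrrh libraries and rose by 1.36 ± 0.06. WARS1, the tryptophan enzyme, had 129, 138 and 141 CPM in the DMSO libraries and 338, 325 and 351 CPM in the Myrrh libraries and rose by 1.31 ± 0.06. The groups did not overlap in either gene. FARSA and FARSB encode the alpha and beta subunits of the phenylalanine enzyme, and both rose. FARSA rose by 1.27 ± 0.06, from 41.1 ± 2.68 to 99.0 ± 6.93 CPM, and FARSB by 0.59 ± 0.05, from 61.9 ± 0.924 to 93.2 ± 3.68 CPM (mean ± SD, n = 3), and the difference between them was not tested.

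The serine enzyme gene SARS1 rose by 1.15 ± 0.06, the threonine gene TARS1 by 1.09 ± 0.05 and the asparagine gene NARS1 by 1.04 ± 0.05. Each of these 3 reached a little over 2 times its DMSO level. CARS1 (cysteine) rose by 0.84 ± 0.05, from 77.3 ± 2.60 to 138 ± 4.04 CPM. VARS1 (valine) rose by 0.54 ± 0.07, with 46.5, 45.8 and 41.7 CPM in the DMSO libraries and 62.5, 58.5 and 73.7 CPM in the Myrrh libraries. HARS1, the histidine enzyme, rose least of the 12, by 0.29 ± 0.05, with 76.3, 75.0 and 74.4 CPM in the DMSO libraries and 87.7, 94.7 and 94.2 CPM in the Myrrh libraries. Even there the lowest Myrrh library was above the highest DMSO library, and the adjusted p was 1.07e-05. The glmTreat test against a log2 fold change of 0.5 did not call HARS1 (adjusted p = 1) or VARS1 (0.242).

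Of the 9 genes of the multi-synthetase complex, 8 rose and 1 fell, with a median of 0.79. EPRS1, a single protein that charges both glutamate and proline tRNA, had 133, 126 and 135 CPM in the DMSO libraries and 335, 313 and 349.5 CPM in the Myrrh libraries and rose by 1.34 ± 0.06. IARS1 (isoleucine) rose by 1.10 ± 0.05, from 215 ± 1.50 to 461 ± 12.2 CPM. MARS1 (methionine) rose by 0.94 ± 0.05 and KARS1 (lysine) by 0.79 ± 0.06. LARS1, the leucine enzyme, which also takes part in leucine sensing for mTORC1, rose by 0.76 ± 0.05, and RARS1 (arginine) by 0.60 ± 0.05. Among the 6 enzymes of the complex that rose, the fold change ran from 1.51 in RARS1 to 2.53 in EPRS1.

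QARS1, the glutamine enzyme of the same complex, fell. It had 113, 112 and 114 CPM in the DMSO libraries and 68.7, 70.3 and 78.2 CPM in the Myrrh libraries, a decrease of 1.57-fold (log2 fold change -0.65 ± 0.05, adjusted p = 2.17e-11). All 3 Myrrh libraries were below all 3 DMSO libraries, which lay close together. On the log2(TPM + 1) scale QARS1 was lower too, by 0.61. QARS1 lies in GRCh38 on chromosome 3 at 49095932 to 49105135, and no other gene with counts shares its exons in GENCODE 29.

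The scaffold gene AIMP2 had 16.6, 20.3 and 16.3 CPM in the DMSO libraries and 50.1, 52.6 and 47.8 CPM in the Myrrh libraries and rose by 1.50 ± 0.08. AIMP1, whose protein is also the precursor of the cytokine EMAP-II, had 43.4, 44.3 and 43.5 CPM in the DMSO libraries and 67.3, 68.9 and 67.7 CPM in the Myrrh libraries and rose by 0.64 ± 0.05. EEF1E1, the third scaffold, rose by 0.87 ± 0.07, from 16.8 ± 0.707 to 30.6 ± 1.15 CPM. AIMP2 shares 532 exonic bases with EIF2AK1 on the opposite strand, a gene at 169 CPM in DMSO and 155 CPM in Myrrh. MARS1 shares 355 exonic bases with DDIT3, also on the opposite strand, and DDIT3 was at 29.04 CPM in DMSO and 320.5 CPM in Myrrh. KARS1 shares 176 exonic bases with TERF2IP on the opposite strand, a gene at 78.0 CPM in DMSO and 138.5 CPM in Myrrh. The sources used here do not give the strand setting of the counting, so reads from these stretches cannot be told apart. Their part in the AIMP2, MARS1 and KARS1 values was not tested. Counts were not whole in all 6 libraries for AIMP2 and MARS1, and in 1 library for KARS1. Other members, among them CARS2, YARS1, WARS1, AIMP1 and GARS1, also share exonic bases with a gene on the opposite strand.

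The mitochondrial genes did not move together. EARS2, the mitochondrial glutamate enzyme, had 21.1, 19.01 and 21.6 CPM in the DMSO libraries and 60.0, 62.4 and 58.6 CPM in the Myrrh libraries. It rose 2.94-fold (log2 fold change 1.55 ± 0.06, adjusted p = 1.15e-17), and was the single mitochondrial gene past 2-fold in that direction. Its groups were far apart, with no overlap. EARS2 lies on chromosome 16 at 23522014 to 23557731 and shares 370 exonic bases with UBFD1 on the opposite strand, a gene at 74.8 CPM in DMSO and 128 CPM in Myrrh. QRSL1 and GATC, subunits of the amidotransferase that turns the glutamate charged by EARS2 onto glutamine tRNA into glutamine, rose by 1.304 ± 0.08 and 0.59 ± 0.06. The third subunit gene, GATB, was at -0.14 ± 0.07 and was not called (adjusted p = 0.0793), although its level per length was 25.7 ± 1.62 TPM in DMSO and 16.96 ± 0.625 TPM in Myrrh.

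VARS2, the mitochondrial valine enzyme, had 57.9, 62.8 and 53.6 CPM in the DMSO libraries and 22.3, 16.8 and 20.1 CPM in the Myrrh libraries. It fell 2.94-fold (log2 fold change -1.56 ± 0.09, adjusted p = 3.59e-11), the lowest value of the 37 genes. Every Myrrh library was far below every DMSO library. VARS2 lies on chromosome 6 at 30908242 to 30926459 and shares 1858 exonic bases with GTF2H4 on the same strand, and its counts were not whole in any of the 6 libraries, so the split of reads with that gene (29.1 CPM in DMSO and 21.99 CPM in Myrrh) is uncertain. CARS2 (cysteine) had 106, 100.3 and 96.7 CPM in the DMSO libraries and 56.9, 59.1 and 57.0 CPM in the Myrrh libraries and fell by 0.81 ± 0.05 on the log2 scale. SARS2 (serine) had 15.1, 13.3 and 13.5 CPM in the DMSO libraries and 7.75, 7.80 and 8.13 CPM in the Myrrh libraries and fell by 0.82 ± 0.09. IARS2 (isoleucine) had 111, 108 and 117 CPM in the DMSO libraries and 81.2, 81.2 and 85.0 CPM in the Myrrh libraries and fell by 0.44 ± 0.05. In these 3 genes too the groups did not overlap. SARS2 shares 349 exonic bases with MRPS12, a mitochondrial ribosomal protein gene on the opposite strand at 14.5 CPM in DMSO and 23.6 CPM in Myrrh.

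The other 10 mitochondrial genes that rose did so by less than EARS2. MARS2 (methionine), the least abundant member, rose by 0.90 ± 0.16, with 3.91, 3.82 and 2.38 CPM in the DMSO libraries and 6.62, 5.83 and 6.34 CPM in the Myrrh libraries, and its DMSO replicate 3 was well below the other 2. YARS2 (tyrosine) rose by 0.72 ± 0.07, FARS2 (phenylalanine) by 0.70 ± 0.10 and RARS2 (arginine) by 0.60 ± 0.06. PARS2 (proline), WARS2 (tryptophan), HARS2 (histidine), LARS2 (leucine), AARS2 (alanine) and NARS2 (asparagine) rose by 0.20 to 0.40. NARS2, with 18.6, 20.6 and 18.96 CPM in the DMSO libraries and 22.3, 21.7 and 22.9 CPM in the Myrrh libraries, held the smallest of these changes (0.20 ± 0.07, adjusted p = 0.0148). Its call was lost without DMSO replicate 1 (adjusted p = 0.0833), with DESeq2 (0.058), with library totals (0.49), with a filter of at least 5 CPM in 3 libraries (0.199) and by limma on log2(TPM + 1) (0.436, or 0.564 over every gene above 0) and log2(TPM + 0.1) (0.44). AARS2 (adjusted p = 0.093) and PARS2 (0.0573) lost their calls with library totals, and AARS2 (0.095) and LARS2 (0.0724) by limma on log2(TPM + 1) over every gene above 0. TARS2 (threonine) was the 1 member not called, at -0.14 ± 0.07 (adjusted p = 0.0605), with 28.6, 30.9 and 30.9 CPM in the DMSO libraries and 28.6, 27.0 and 26.6 CPM in the Myrrh libraries. It was called lower with library totals (-0.28, adjusted p = 0.000798), with the filter of at least 5 CPM (-0.23, adjusted p = 0.002), without DMSO replicate 1 (0.0459) and without Myrrh replicate 1 (0.0473), and its value was 0.05 on log2(TPM + 1).

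As a share of all gene counts in a library, the 19 cytosolic genes together held 0.268, 0.266 and 0.267% in DMSO and 0.529, 0.499 and 0.533% in Myrrh. The 16 mitochondrial genes held 0.0528, 0.0527 and 0.0528% and 0.0469, 0.0445 and 0.0466%. The cytosolic share was higher and the mitochondrial share lower in every Myrrh library (two-sided exact permutation test, p = 0.1 for each, the smallest that 3 against 3 allows). Per transcript length, the cytosolic sum went from 1616 ± 18.6 to 3340 ± 134 TPM (the deposited measure scaled for transcript length and depth, mean ± SD, n = 3). The mitochondrial sum was 320 ± 11.4 TPM in DMSO and 320 ± 10.8 TPM in Myrrh, so the lower share of counts was not seen on this scale.

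**Figure D3:**
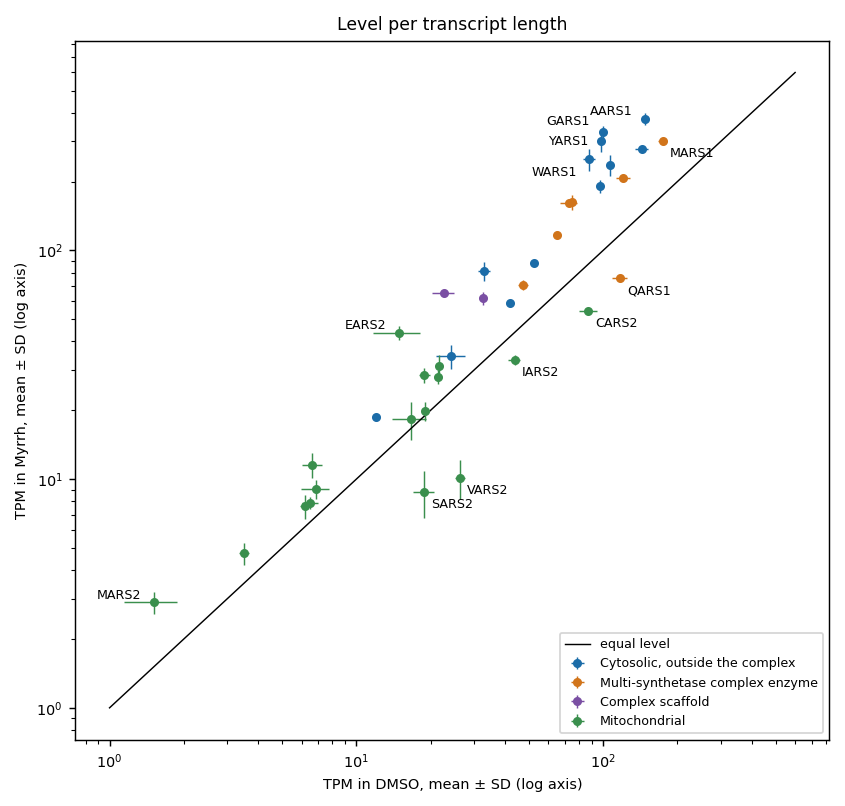
Mean TPM of each gene in Myrrh against DMSO on log axes, with SD over 3 libraries per group and a line of equal level. Cytosolic genes lie above the line except QARS1, and CARS2, IARS2, SARS2 and VARS2 are the mitochondrial genes clearly below it.

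Levels of different genes were compared in TPM. In DMSO the highest were MARS1 (174 ± 6.62 TPM), AARS1 (148 ± 4.56), TARS1 (144 ± 8.64), KARS1 (121 ± 7.64) and QARS1 (117 ± 8.12). AARS1 and TARS1, and KARS1 and QARS1, did not differ beyond their spread. In Myrrh the order began with AARS1 (376 ± 23.1 TPM), GARS1 (328 ± 20.5), YARS1 (301 ± 32.9), MARS1 (300.4 ± 6.38) and TARS1 (278 ± 9.09). There the SD range of YARS1 overlapped those of GARS1, MARS1 and TARS1. QARS1 went from rank 5 to rank 15 of the 37, and EARS2 from rank 30 (14.9 ± 3.22 TPM) to rank 21 (43.7 ± 3.003). VARS2 went from rank 21 (26.4 ± 1.14 TPM) to rank 31 (10.2 ± 2.01). MARS2 (1.51 ± 0.366 and 2.90 ± 0.323 TPM), PARS2 and AARS2 were the lowest in both groups. CARS2 (87.0 ± 7.53 TPM in DMSO) was the most abundant mitochondrial gene and stood above its cytosolic counterpart CARS1 (52.2 ± 0.467), while in Myrrh it was at 54.4 ± 1.82 and CARS1 at 88.3 ± 2.10.

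Enzymes for the same amino acid were then set against each other within each library, as the log2 ratio of the cytosolic to the mitochondrial gene in CPM. Of 17 pairs, the ratio was higher in all 3 Myrrh libraries than in all 3 DMSO libraries for 12, lower for 1, and overlapping for 4. Of all single genes, 80.3% did not overlap between the groups in CPM, and the share for ratios of other gene pairs was not computed. The count of pairs without overlap therefore cannot be read as particular to the synthetases. The pairs share genes, since EPRS1 was set against both EARS2 and PARS2, and FARS2 against both FARSA and FARSB. The median difference was 0.84 on the log2 scale. Every pair without overlap had p = 0.1 by a two-sided exact permutation test, which is the smallest possible, and 0.131 after adjustment over the 17 pairs, so no pair could pass 0.05.

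The ratio of VARS1 to VARS2 was -0.315, -0.451 and -0.357 in DMSO and 1.47, 1.77 and 1.85 in Myrrh, a difference of 2.07, the largest of the 17. In DMSO the mitochondrial gene had the higher count, and in Myrrh the cytosolic gene did. Per length, this ratio was 0.92 ± 0.088 in DMSO and 3.46 ± 0.623 in Myrrh, and the split of VARS2 reads with GTF2H4 is uncertain. SARS1 to SARS2 was 3.08, 3.24 and 3.18 in DMSO and 5.09, 5.02 and 5.17 in Myrrh (difference 1.93). Per length it went from 5.74 ± 0.449 to 27.7 ± 4.94, a larger factor than for VARS1 to VARS2, so the order of these 2 pairs holds in CPM only. CARS1 to CARS2 was -0.428, -0.340 and -0.377 in DMSO and 1.23, 1.248 and 1.29 in Myrrh (difference 1.64), again with a change of sign. IARS1 to IARS2 was 0.962, 0.980 and 0.880 in DMSO and 2.54, 2.46 and 2.42 in Myrrh (difference 1.53). In these 4 pairs the cytosolic gene rose and the mitochondrial gene fell. For TARS1 to TARS2 (1.22), AARS1 to AARS2 (1.08), EPRS1 to PARS2 (0.97), WARS1 to WARS2 (0.93), NARS1 to NARS2 (0.84), YARS1 to YARS2 (0.82), FARSA to FARS2 (0.60) and LARS1 to LARS2 (0.45) the cytosolic gene rose by more than the mitochondrial gene moved.

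**Figure D4:**
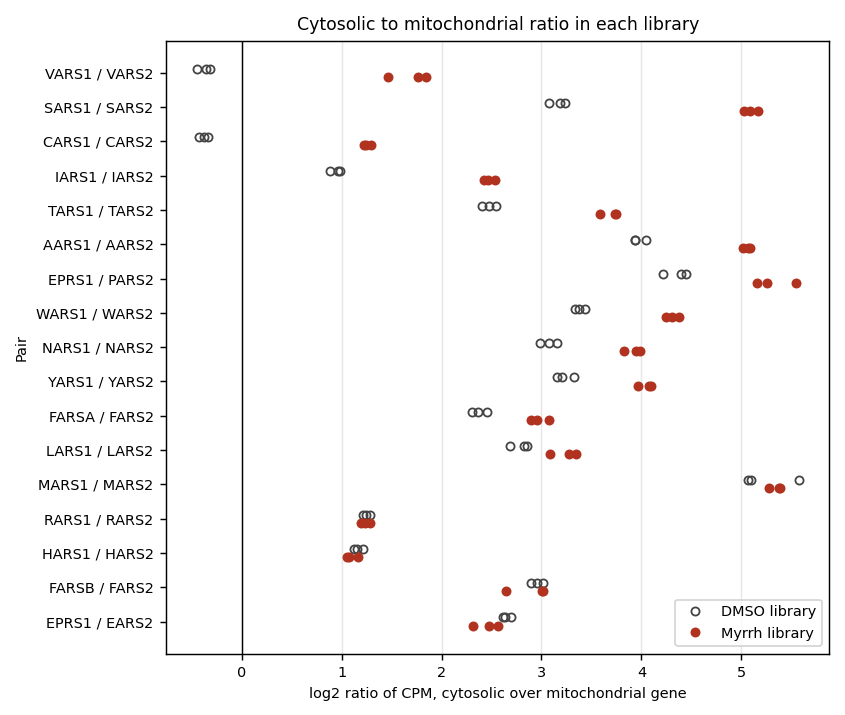
log2 ratio of CPM of the cytosolic over the mitochondrial gene in each DMSO library (open) and each Myrrh library (filled), ordered by the difference between the groups. The filled circles lie right of the open ones in the upper 12 pairs, mix with them in MARS1, RARS1, HARS1 and FARSB, and lie left of them in EPRS1 over EARS2.

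The 1 pair with a lower ratio was EPRS1 to EARS2, at 2.64, 2.70 and 2.62 in DMSO and 2.47, 2.32 and 2.56 in Myrrh (difference -0.20), in which both genes rose. Per length, this ratio was 5.04 ± 1.07 in DMSO and 3.69 ± 0.172 in Myrrh. The ratios of RARS1 to RARS2 (1.28, 1.24 and 1.21 in DMSO and 1.24, 1.28 and 1.20 in Myrrh) and of HARS1 to HARS2 (1.21, 1.16 and 1.12 in DMSO and 1.06, 1.16 and 1.08 in Myrrh) overlapped between the groups, with differences of -0.005 (exact permutation p = 0.7) and -0.07 (p = 0.3). FARSB to FARS2 (difference -0.07, exact permutation p = 0.9) and MARS1 to MARS2 (0.10, exact permutation p = 0.6) overlapped too. In the last pair the DMSO values spread from 5.06 to 5.58, and MARS2 had as few as 66 counts in a library.

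HARS1 and HARS2 lie head to head on chromosome 5, and both rose by a small amount (0.29 ± 0.05 and 0.36 ± 0.06). The stretch between their RefSeq start sites is shown because it lies upstream of both of these sites. It is given on the plus strand of GRCh38.p14, which reads toward HARS2.
HARS1 and HARS2, chr5:140691371-140691454: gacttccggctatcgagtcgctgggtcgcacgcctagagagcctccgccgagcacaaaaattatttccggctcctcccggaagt
The 84 bases hold no match to the element described next. In GENCODE 29 HARS1 reaches to 140691862 and HARS2 begins at 140691426, so there the stretch lies within HARS1 and partly within HARS2. By that annotation the 2 genes share 437 exonic bases on opposite strands, and the counts of both were not whole in all 6 libraries.

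ATF4, paired with a C/EBP protein, binds a composite element whose core reads TGATGNAA, where N is any base. The letters were searched on both strands in the RefSeq promoter windows (GRCh38.p14, 250 bases before to 50 after each start site), which 32 of the 37 genes had. The promoters of VARS1, YARS1, LARS1, AARS2 and VARS2 were not analysed here. The core was in a window of 7 of 16 cytosolic enzyme genes, 0 of 2 scaffold genes and 1 of 14 mitochondrial genes. Among 11438 tested genes with a window it was in 2.73%, and among all 35116 windows in 3.62%. The stricter TGATGCAA, which is a part of the same matches, was in 6 of the 16 cytosolic and 0 of the 14 mitochondrial genes, against 0.734% of the tested genes. A match is a description of the sequence and not evidence of binding.

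The 8 matches are shown with up to 30 bases on each side because the core was in a larger share of cytosolic promoters than of all tested genes. Capitals mark the core or its reverse complement, and each line reads 5′ to 3′ along the strand of the gene, with a stretch that ends at most 30 bases after the start site.
AARS1, chr16:70289656-70289723, minus strand: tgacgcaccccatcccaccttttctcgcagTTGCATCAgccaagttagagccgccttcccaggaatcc
CARS1, chr11:3057394-3057455, minus strand: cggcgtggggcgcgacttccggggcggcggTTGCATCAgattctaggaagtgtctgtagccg
GARS1, chr7:30594815-30594882, plus strand: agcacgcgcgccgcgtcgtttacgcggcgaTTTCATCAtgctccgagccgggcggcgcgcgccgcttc
NARS1, chr18:57621807-57621852, minus strand: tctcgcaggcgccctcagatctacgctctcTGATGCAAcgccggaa
TARS1, chr5:33440937-33440994, plus strand: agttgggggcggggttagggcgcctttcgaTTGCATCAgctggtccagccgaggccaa
IARS1, chr9:92293673-92293740, minus strand: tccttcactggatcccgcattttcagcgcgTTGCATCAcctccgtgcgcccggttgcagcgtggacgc
MARS1, chr12:57488034-57488097, plus strand: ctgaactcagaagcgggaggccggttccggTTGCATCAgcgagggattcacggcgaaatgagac
YARS2, chr12:32756057-32756124, minus strand: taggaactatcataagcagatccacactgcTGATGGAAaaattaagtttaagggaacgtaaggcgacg
In AARS1, CARS1, TARS1, IARS1 and MARS1 the same 8 letters, TTGCATCA, stand in the promoter, NARS1 has TGATGCAA, their reverse complement, GARS1 has TTTCATCA and YARS2 has TGATGGAA. In CARS1, MARS1, IARS1, GARS1, TARS1 and NARS1 the first base lay within 33 bases before to 15 bases into the transcript. AARS1 (187 bases before the start) and YARS2 (197 bases) held theirs farther upstream.

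The 7 cytosolic genes with the core rose by 0.84 to 1.68, with a median of 1.09. The 9 cytosolic genes with a window and no match ranged from -0.65 (QARS1) to 1.34 (EPRS1), with a median of 0.79. EPRS1, WARS1, FARSA and SARS1 had no match in this window and rose by more than 1 on the log2 scale, so the ranges overlapped. YARS2, the 1 mitochondrial gene with a match, rose by 0.72 ± 0.07, and the 13 others with a window ranged from -0.82 (SARS2) to 1.55 (EARS2), with a median of 0.36.

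**Figure D5:**
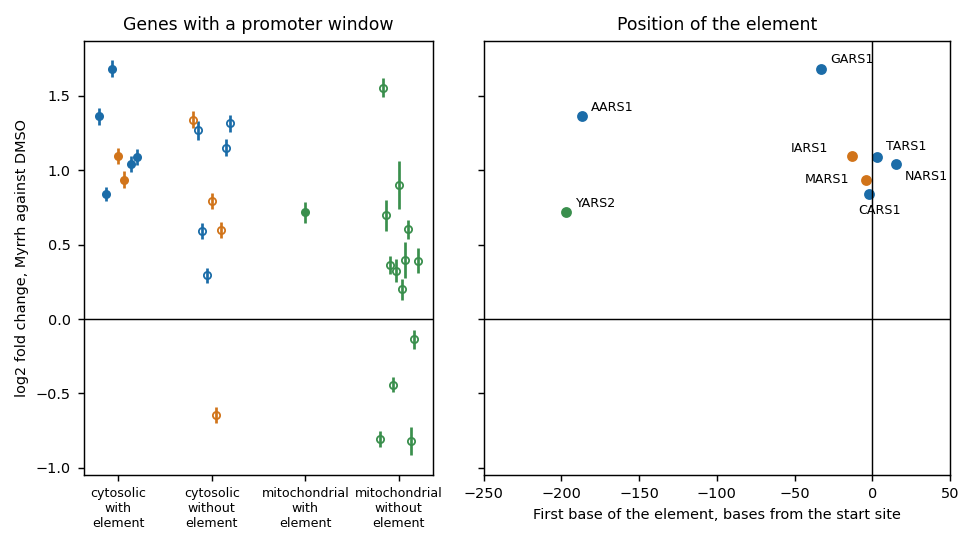
Left, log2 fold change with its standard error for the cytosolic and mitochondrial enzyme genes with (filled) and without (open) the searched core in a promoter window, coloured by class as in the plot of CPM. Right, fold change of the 8 genes with a match by the position of its first base relative to the start site. Of the 7 cytosolic matches, 6 lie within 33 bases of the start, and the cytosolic genes without a match span a wider range of fold changes.

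Synthetases fall into class I and class II by the fold of their catalytic domain, and EPRS1 holds one of each. The 9 cytosolic class I genes had a median of 0.84 and the 9 of class II a median of 1.09, and the medians of the mitochondrial genes were 0.39 (9 genes) and 0.28 (7 genes). The ranges of the classes overlapped, at -0.65 to 1.53 and 0.29 to 1.68 in the cytosolic genes. In the mitochondrial genes they were -1.56 to 1.55 and -0.82 to 0.70. The difference between the classes was not tested.

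Genes that act around the synthetases were read from lists, beside the 39.3% of all genes called higher and 39.1% called lower. The counts with library totals stand beside 5378 of all 16395 genes called higher and 7479 called lower with that scaling. Of 27 genes of the ATF4 pathway, 26 rose and 1 was not called, with a median of 1.26. ATF4 itself rose by 0.96 ± 0.06, from 341 ± 9.23 to 664 ± 51.6 CPM. ATF3 (4.65 ± 0.07), SLC3A2 (4.25 ± 0.06) and TRIB3 (4.22 ± 0.07) had the highest values. SLC38A2 (0.37 ± 0.06), a glutamine and alanine transporter, PSPH (0.33 ± 0.06), which makes serine, and ATF5 (0.32 ± 0.07) had the lowest values among those called, and VLDLR, the gene not called, was at -0.20 ± 0.10 (adjusted p = 0.0631). This list had been chosen with earlier results of these libraries known. Of the kinases that phosphorylate eIF2alpha, EIF2AK3 (PERK, the kinase of the ER) rose by 2.02 ± 0.07, from 12.6 ± 1.36 to 51.0 ± 1.42 CPM. EIF2AK4 (GCN2), which senses uncharged tRNA, was called higher by 0.21 ± 0.06, but its groups overlapped in CPM and its level per length was 35.2 ± 3.20 TPM in DMSO and 35.1 ± 0.261 TPM in Myrrh. EIF2AK2 (PKR) was called higher by 0.15 ± 0.05, while its level per length went from 19.1 ± 1.90 to 41.3 ± 5.33 TPM, a difference of 1.07 on the log2(TPM + 1) scale. The fourth kinase, EIF2AK1 (HRI), fell by 0.12 ± 0.05. Scaled by library totals, EIF2AK4 (0.07, adjusted p = 0.323) and EIF2AK2 (0.003, adjusted p = 0.961) lost their calls and VLDLR was called lower (-0.35, adjusted p = 0.0035).

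WARS1 is also known as a gene induced by interferon gamma. Of 20 interferon-induced genes, 18 fell and 2 rose, with a median of -0.91, while WARS1 rose. IDO1, which degrades tryptophan, was at 1.305, 0.868 and 1.01 CPM in DMSO and at 0.126 CPM in Myrrh replicate 1, with 0 counts in the other 2 Myrrh libraries. IFI44L (-3.27 ± 0.08) and MX2 (-2.80 ± 0.13) followed. The 2 that rose were GBP3 (0.90 ± 0.06) and IRF1 (0.60 ± 0.06).

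Of 13 other genes for tRNA charging, 11 rose and 2, TARS3 and GATB, were not called, with a median of 0.55. Besides QRSL1 and EEF1E1, DTD2, a deacylase that clears wrongly charged tRNA, rose by 0.69 ± 0.10. SEPSECS, of selenocysteine synthesis, rose by 0.23 ± 0.07, and TARS3, a second cytosolic threonine enzyme, was at -0.20 ± 0.10 (adjusted p = 0.0606). With library totals 7 of the 13 were called higher and 2, TARS3 and GATB, lower, and SEPSECS lost its call (adjusted p = 0.231). Of 21 genes for transcription by RNA polymerase III, which makes tRNA, 16 rose, 2 fell and 3 were not called (median 0.63). The subunit genes POLR3C (2.17 ± 0.06) and POLR3D (1.70 ± 0.07) and the initiation factor BRF2 (1.69 ± 0.08) were highest, and POLR3D was at 5.72 ± 0.814 TPM in DMSO and 34.5 ± 7.32 TPM in Myrrh. POLR3GL (-0.64 ± 0.07) and GTF3C2 (-0.15 ± 0.06) fell, while POLR3G, the paralog of POLR3GL, rose by 1.01 ± 0.08, a gene named after its value was seen. With library totals 15 of the 21 were called higher and 3 lower.

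Of 23 genes for tRNA maturation and export, 14 rose, 2 fell and 7 were not called (median 0.32). RPP40, a subunit of ribonuclease P (1.54 ± 0.11), the tRNA ligase RTCB (1.248 ± 0.07) and TSEN15, of the splicing endonuclease (0.89 ± 0.05), were highest. PRORP, the nuclease of mitochondrial tRNA processing, fell by 0.33 ± 0.08 and POP5 by 0.23 ± 0.07, and TRMT10C, a partner of PRORP, rose by 0.18 ± 0.08. On the TPM scale PRORP was not lower, at 14.4 ± 2.07 TPM in DMSO and 14.9 ± 0.929 TPM in Myrrh (difference 0.05 on log2(TPM + 1)). With library totals 12 of the 23 were called higher and 3 lower, and TRMT10C was not called (adjusted p = 0.674). Charged tRNA is carried to the ribosome by elongation factors. Of 8 cytosolic factors, 5 rose, 1 fell and 2 were not called, with EEF2 (0.83 ± 0.06), EEF1G (0.81 ± 0.06) and EEF1B2 (0.73 ± 0.06) highest. EEF1A1, which delivers the charged tRNA, rose by 0.39 ± 0.05, its paralog EEF1A2 by 0.24 ± 0.11, and EEF2K, the kinase that inhibits EEF2, fell by 0.32 ± 0.06. With library totals 4 of the 8 were called higher and 3 lower, and EEF1A2 was not called (adjusted p = 0.402). Of 11 mitochondrial translation factors, 8 rose and 3 fell (median 0.39), and with library totals 6 were called higher and 3 lower, since MTIF3 (adjusted p = 0.0529) and MRRF (0.143) lost their calls. GFM1 (1.41 ± 0.06), MTIF2 (1.13 ± 0.06) and GFM2 (1.12 ± 0.06) were highest, and MTRFR (-0.45 ± 0.07), TSFM (-0.30 ± 0.07) and MTRF1 (-0.30 ± 0.09) fell.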

How the data were processed

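RNA from 6 libraries of 12Z cells was measured by sequencing, and groups were taken from the sample titles. The deposited count table holds estimated counts per gene, not scaled between libraries. The submitters' processing notes list STAR, RSEM 1.3.1 and GRCh38. The sources used here do not give trimming, annotation release or strand. Of the 37 genes, 25 had whole counts in all libraries. The deposited log2(TPM + 1) values were made by the authors. Back on the linear scale they summed to 999429 to 999560 in a library.

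Estimated counts were rounded, and edgeR's filterByExpr left 16395 genes. Myrrh was compared with DMSO by edgeR 4.0.16 (TMM, robust glmQLFit, quasi-likelihood F-test, no block), adjusted over all tested genes. TMM factors were 1.05 in DMSO and 0.933 to 0.973 in Myrrh. Standard errors were computed from the fold change and F. Pair ratios used log2(CPM + 0.5). No pair of libraries agreed within sampling noise (chi-square per degree of freedom 3.65 to 8.71 within groups). In 5 simulated sets of the 16395 genes, 200 genes with a mean above 5 CPM were changed. Of these, 77.2% of 1.25-fold and 96.4% of 1.5-fold changes were recovered, and 6.6% of calls were false. In the data 78.4% of genes were called, a far larger share, so these rates cannot be carried over to the calls reported here or to genes of lower level. Alternatives used DESeq2 1.42.0, limma 3.58.1, other filters, units and scalings, the replicate block and each library left out. Positions and overlaps came from GENCODE 29 on GRCh38, and promoters from RefSeq (GRCh38.p14). The members and lists were chosen with earlier results of these data known. All 37 members were named. Of each other list, the 3 highest and 3 lowest called genes, ATF4 and the eIF2alpha kinases were named, beside genes said to be chosen later or tied to a member. Some genes that this rule names are not reported here. Protein sequences were not used here.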

Additional observations from a re-analysis of the deposited data

How the results depend on the processing

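Against a log2 fold change of 0.5 (glmTreat), 3472 of all genes were called higher and 4011 lower, and 5 mitochondrial synthetase genes higher, which follows from the stricter null. The counts of cytosolic and complex genes called stayed within 1.5 times under all 15 alternatives, and those of mitochondrial genes under all but that one. Of 555 values of single genes under an alternative, 528 kept direction and side of the threshold. TARS2 turned to 0.055 by limma on log2(TPM + 1), with and without the filter, and to 0.057 on log2(TPM + 0.1). The cause was not tested. Of 153 pair values, 148 kept their direction. On log2(TPM + 1) HARS1 to HARS2 was 0.099 and RARS1 to RARS2 0.003. With 1 library left out, FARSB to FARS2 ranged from -0.136 to 0.053 and RARS1 to RARS2 from -0.027 to 0.015. The ratio of Myrrh to DMSO was 2.07 for the summed TPM of the cytosolic genes, against 1.95 for their share of counts, and 1.002 for the mitochondrial genes, against 0.871. With TGATGCAA, 0 mitochondrial promoters matched, by construction a subset. Deviations of same-numbered libraries had correlations of -0.0596, -0.00454 and 0.0361, and those of different-numbered libraries ran from -0.0928 to 0.102. With so few libraries, these values cannot tell whether a number marks a shared culture or day. With the replicate block, 6390 genes were called higher and 6392 lower, and 18 cytosolic and 11 mitochondrial genes higher, as without it. Of 15 alternatives, the scaling by library totals was also read for the genes around the synthetases, chosen after seeing the data, and the counts it moved stand beside each list. Depth limits MARS2 most, which had 66 counts in its lowest library.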
